A study of Mus musculus with 4 samples.

Results

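The glutathione S-transferases were followed here through 10 genes, Gstp1, Gstp2, Gsta3, Gsta4, Gstm1, Gstm2, Gstt1, Gsto1, Mgst1 and Mgst3, taken by gene name from a raw count table of 31247 genes. All 10 were in the table, and 9 passed the filter on low counts. The cells were Pdgfrb-GFP positive lung cells, called myofibroblasts in the labels, sorted from dissociated lungs of mice on postnatal day 7 after removal of dead cells. The conditional knockout (CKO) group carried the Dnmt1-D/D alleles together with Tbx4-rtTA, in which Tbx4 control places rtTA in lung mesenchyme, the Tet-O-Cre transgene that rtTA switches on, and the PDGFRb-GFP reporter. The wild-type (WT) group carried the reporter alone, as Wild type PDGFRb-GFP. Each group had 2 lungs and 2 libraries, named here by genotype and a letter that carries no pairing.

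Glutathione S-transferases join the tripeptide glutathione to electrophiles, which include products of lipid oxidation and many foreign compounds. The soluble enzymes fall into classes, among them alpha (Gsta), mu (Gstm), pi (Gstp), theta (Gstt) and omega (Gsto), while Mgst1 and Mgst3 belong to a separate family of membrane proteins, the MAPEG family. Dnmt1 copies DNA methylation onto newly made strands, and the promoter of the human pi-class gene GSTP1 is a well-known target of methylation in prostate cancer. Many genes of glutathione metabolism are driven by the transcription factor NRF2 (gene Nfe2l2), which is held in check by Keap1. DNA methylation was not measured in these samples.

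The promoter windows of the pi-class genes are shown because Gstp2 was the member with the largest change and Gstp1 its near-identical neighbour, and that of Mgst1 because it was the other member past the threshold. Gstp3, a further pi-class gene with almost no reads, is shown for comparison. Each window runs from 250 bases before to 50 bases after the RefSeq gene start on GRCm38.p6, 5′ to 3′ along the gene, and capitals mark CpG dinucleotides. The windows lie at chr19:4042172-4042471 (minus strand) for Gstp2, chr19:4037863-4038162 (minus) for Gstp1, chr19:4059398-4059697 (minus) for Gstp3 and chr6:138140277-138140576 (plus) for Mgst1.
Gstp2: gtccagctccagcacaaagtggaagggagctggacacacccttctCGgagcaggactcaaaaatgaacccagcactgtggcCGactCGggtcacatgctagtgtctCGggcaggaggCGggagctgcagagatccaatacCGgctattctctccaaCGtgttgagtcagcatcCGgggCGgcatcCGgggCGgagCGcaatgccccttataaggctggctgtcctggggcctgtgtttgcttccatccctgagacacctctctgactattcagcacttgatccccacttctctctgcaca
Gstp1: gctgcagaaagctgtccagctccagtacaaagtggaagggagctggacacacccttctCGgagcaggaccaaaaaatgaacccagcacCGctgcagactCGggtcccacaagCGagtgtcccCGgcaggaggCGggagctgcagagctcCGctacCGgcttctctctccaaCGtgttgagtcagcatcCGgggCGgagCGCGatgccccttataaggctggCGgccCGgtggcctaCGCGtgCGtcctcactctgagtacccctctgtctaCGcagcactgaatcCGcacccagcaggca
Gstp3: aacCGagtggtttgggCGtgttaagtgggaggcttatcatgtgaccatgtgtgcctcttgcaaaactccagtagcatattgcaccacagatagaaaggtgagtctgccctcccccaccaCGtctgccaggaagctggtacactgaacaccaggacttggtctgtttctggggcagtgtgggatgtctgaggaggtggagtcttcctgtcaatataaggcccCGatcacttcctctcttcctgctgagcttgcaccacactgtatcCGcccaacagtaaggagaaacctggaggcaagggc
Mgst1: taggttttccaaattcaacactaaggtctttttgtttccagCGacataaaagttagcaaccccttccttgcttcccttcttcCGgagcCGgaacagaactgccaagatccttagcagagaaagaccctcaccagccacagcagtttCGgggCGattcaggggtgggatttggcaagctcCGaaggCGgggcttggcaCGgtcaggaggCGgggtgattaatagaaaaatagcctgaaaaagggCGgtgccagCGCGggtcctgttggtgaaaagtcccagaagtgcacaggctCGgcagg

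The Gstp2 window held 12 CpGs and the Gstp1 window 20, and 8 of the Gstp2 CpGs aligned with a CpG of Gstp1. The windows of these neighbours matched at 241 of 284 aligned bases (84.9%), whereas those of Gstp2 and Gstp3 matched at 54.0%. Gstp3 held 5 CpGs and Mgst1 13. Over 27025 promoter windows of the same length, the median was 7 CpGs with quartiles of 3 and 21, and 94.2% held at least 1. The other members with a RefSeq window ranged more widely, with 21 CpGs for Mgst3, 16 for Gsto1, 14 for Gstm1, 8 for Gstt1, 3 for Gstm2 and 2 for Gsta3, where Gstm1 and Mgst1 each had another annotated start with 8 and 1 CpGs. Gsta4 had no window in the table. The 12 CpGs of Gstp2 lay between the 2 of Gsta3 and the 21 of Mgst3, and a relation of CpG count to the changes was not tested.

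A search on both strands for TGANTCA, the core recognised by AP-1 and present in 7.93% of all windows, found 1 match in Gstp2 and 1 in Gstp1 and none in the windows of the other members that had one. The site and its flanks were the same in both genes, 89 bases before the start in Gstp2 (chr19:4042304-4042310) and 74 bases before it in Gstp1 (chr19:4037980-4037986), with the site in capitals.
Site in Gstp2 and Gstp1: caacgtgtTGAGTCAgcatccgg
The core of the antioxidant response element bound by NRF2, TGACNNNGC, was in 12.5% of windows, and among the members in those of Gsta3 and Mgst1. Only this exact core was searched. The site in Gstp2 and Gstp1, read on into its flank, differs from it only by G in place of C and was not counted. These matches describe letters in a window and show no binding.

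Dnmt1, the targeted gene, had 78.1 and 29.5 CPM (read counts scaled to a common library size, with TMM factors) in the CKO libraries, against 144 and 115 CPM in the WT libraries. Relative to the WT mean, the Dnmt1 CPM was 60.3% in CKO A and 22.8% in CKO B. These values count reads of the gene and measure no protein. The log2 change of -1.27 ± 0.57 (SE) was not called (edgeR quasi-likelihood test, Benjamini-Hochberg adjusted p = 0.310). In the authors' deposited table the log2 change of Dnmt1 was -1.23, with an adjusted p of 0.0290, below the threshold of 0.05. Depth was similar, at 23581186 to 26420648 counted reads in CKO and 23071657 to 25709717 in WT, and 1 read was worth 0.0378 to 0.0433 CPM before TMM scaling. CKO A alone had reads of the Y-linked gene Ddx3y (2494, against 0 in the other 3 libraries), while Xist stood at 164 CPM in CKO A, 1080 CPM in CKO B and 848 and 670 CPM in WT. CKO A thus held reads of both, and it differed from the others in sex-linked genes. The sort marker Pdgfrb averaged 345 ± 39.9 CPM in CKO and 491 ± 20.95 CPM in WT (SD, n = 2 each; adjusted p = 0.0546), and no myofibroblast marker was called. Of the 8 myofibroblast markers, 4 had a log2 change above 0. Pdgfra (log2 change -0.60; edgeR adjusted p = 0.0526), Tgfbi (-0.60; 0.139) and Myh11 (-0.36; 0.244) were lower in CKO, without overlap between genotypes. Eln made up most of the summed myofibroblast markers, at 36186 and 35494 CPM in CKO and 27940 and 30065 CPM in WT, while the other 7 summed to 13569 and 10623 CPM in CKO and 15512 and 14513 CPM in WT. Libraries of a genotype differed by more than counting noise, and since nothing in the labels gives litters or batches, p-values reflect only how far the libraries at hand differ.

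Of the 9 tested members, Gstp2 and Mgst1 were higher in CKO cells and none was lower. Over all 15210 tested genes, 7.61% were called in either direction, 4.85% higher and 2.75% lower. DESeq2 and limma-voom called Gstp2 and Mgst1 too, while calling 8.22% and 5.59% of the genes they tested. Leaving out CKO A gave 3 called members (11.3% of all tested genes called) and leaving out CKO B gave 2 (6.42%). Leaving out WT A (3.64%) or WT B (2.14%) left Gstp2 as the 1 called member. At an unadjusted p under 0.05, 4 members were higher, against 13.1% of all tested genes. In 6 tested members both CKO libraries lay above both WT libraries and in 0 both lay below, whereas 27.8% of all tested genes had both CKO libraries above both WT libraries 57.0% had no overlap in either direction and 29.2% had both CKO libraries below. Scaled by library size alone, 5 tested members had both CKO libraries above. The median log2 change was 0.30 over the tested members and -0.01 over all tested genes. In bulk samples a change in the share of cells that make a transcript and a change in transcript per cell cannot be told apart.

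**Figure D1:**
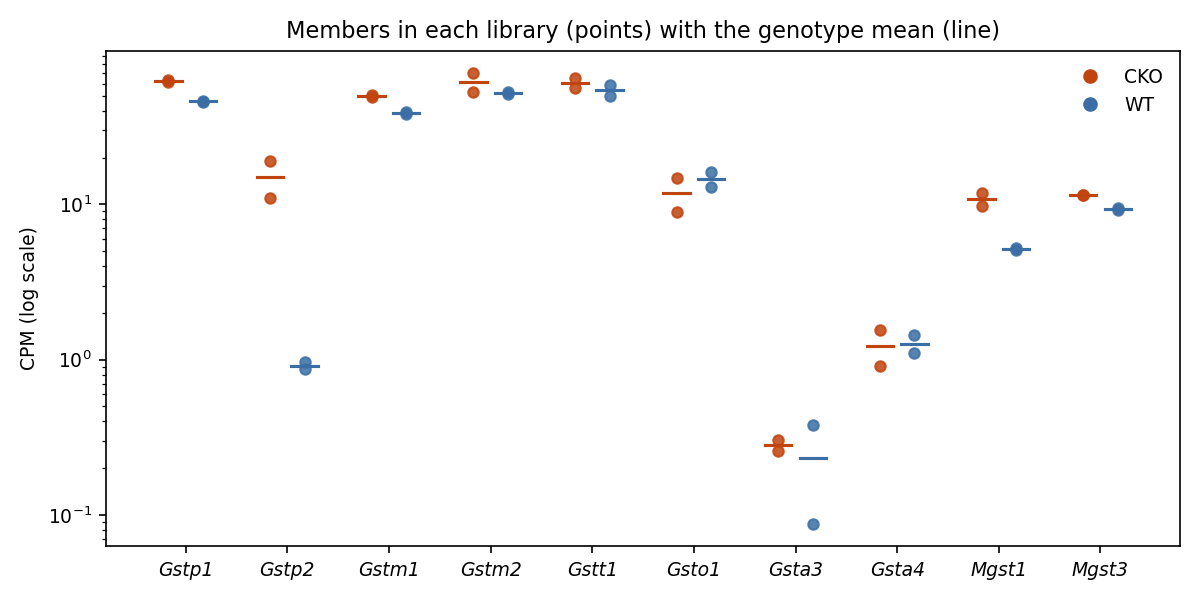
TMM-scaled CPM of the 10 members on a log axis, with CKO libraries in orange left of WT libraries in blue; points are libraries and lines are means of 2. Gstp2 and Mgst1 show the widest gaps, and the points of Gstt1, Gsto1, Gsta3 and Gsta4 overlap between genotypes.

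Gstp2, a pi-class gene on chromosome 19 (GRCm38, GENCODE M21, 4040285 to 4046023, minus strand), had 289 and 444 reads in CKO A and CKO B, against 22 and 23 reads in WT A and WT B. The RefSeq start used above lies inside this longer GENCODE span. In CPM these were 11.0 and 19.1 in the CKO libraries and 0.965 and 0.866 in the WT libraries. Both CKO libraries were far above both WT libraries, and CKO B, which had the lower Dnmt1 CPM, had the higher level. Mgst1, the other called member, was instead higher in CKO A (11.8 CPM) than in CKO B (9.78 CPM). A relation to the Dnmt1 level was not tested. Gstp2 was high both in CKO A, the library with Ddx3y reads, and in CKO B, which had none. No WT library had Ddx3y reads, so CKO A had no WT counterpart, and a link to sex was not tested. The means were 15.1 ± 5.76 CPM in CKO and 0.916 ± 0.0701 CPM in WT (SD, n = 2 each), a 16.4-fold difference with a 95% interval of 9.56 to 28.1. The log2 change of 4.03 ± 0.33 (SE) had an edgeR adjusted p of 0.00187 and ranked 198 by log2 change and 24 by p among the 15210 tested genes. In the authors' deposited table the log2 change of Gstp2 was 4.07, with an adjusted p of 3.13e-21.

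Gstp1, the pi-class enzyme next to it on the same strand (chromosome 19, 4035407 to 4037985), had 61.1 and 63.6 CPM in CKO and 45.6 and 46.6 CPM in WT. The genotypes did not overlap, but the log2 change of 0.43 ± 0.11 (SE) narrowly missed the threshold (edgeR adjusted p = 0.0511). It was called without CKO A, at a log2 change of 0.49 (adjusted p = 0.0236), and with no filter on low counts, and its adjusted p ran from 0.0107 to 0.259 over the other settings.

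Reads of these genes are hard to assign, because their longest protein-coding transcripts were identical at 752 of 786 aligned bases (95.7%). Of the 50-base stretches in Gstp2 exons, 648 of 1193 (54.3%) also occurred in transcripts of another gene, as did 586 of 1737 (33.7%) in Gstp1. The split of reads between them as counted by the authors is therefore uncertain, and the read length is not given in the sources used here. Gstp2 made up 15.2% (exact binomial 95% interval 13.7 to 16.9) and 23.1% (21.3 to 25.1) of the Gstp1 plus Gstp2 reads in CKO A and CKO B, against 2.07% (1.30 to 3.12) and 1.82% (1.16 to 2.72) in WT A and WT B. Per 100 Gstp1 reads there were 18.0 and 30.1 Gstp2 reads in the CKO libraries and 2.12 and 1.86 in the WT libraries. The intervals cover counting error only and did not overlap between genotypes, so the ratio of the genes as counted was higher in each CKO library than in each WT library. With the reads of both genes summed, the log2 change was 0.72 (edgeR adjusted p = 0.0139). Reads of Gstp3 numbered 0 in both CKO libraries and 2 and 1 in the WT libraries, too few for a test, and the processed copy Gstp-ps had 28 and 25 reads in CKO and 12 and 20 in WT (adjusted p = 0.366).

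**Figure D2:**
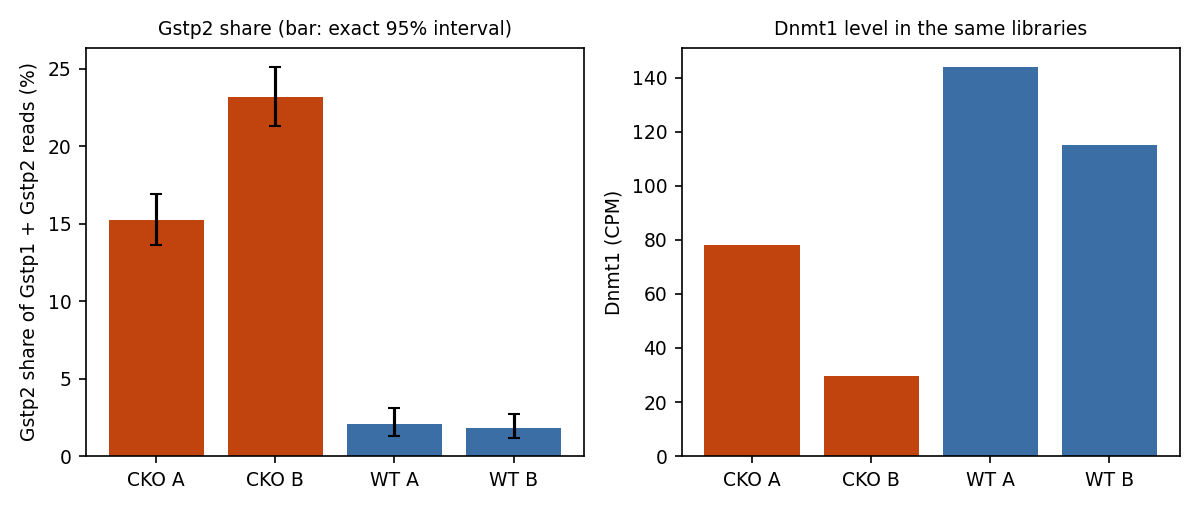
Left, share of Gstp2 in the reads counted on Gstp1 and Gstp2, with exact binomial 95% intervals, in CKO libraries (orange) and WT libraries (blue); right, Dnmt1 in CPM in the same libraries. The share is 15.2% and 23.1% in CKO and about 2% in WT (2.07% and 1.82%), and Dnmt1 is lower in both CKO libraries. A relation between the share and Dnmt1 was not tested.

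Mgst1, the microsomal transferase that is also a glutathione peroxidase (chromosome 6, 138140316 to 138156755, plus strand), had 310 and 227 reads in CKO, against 119 and 135 reads in WT. In CPM it stood at 11.8 and 9.78 in the CKO libraries and 5.22 and 5.08 in the WT libraries, without overlap. The means were 10.8 ± 1.42 CPM in CKO and 5.15 ± 0.0971 CPM in WT (SD, n = 2 each), a log2 change of 1.07 ± 0.19 (SE; edgeR adjusted p = 0.0183) with a 95% interval of 0.62 to 1.51. The direction was the same in all settings, but the call was lost without WT A (adjusted p = 0.0778) and without WT B (0.113), and the adjusted p ran from 6.74e-05 to 0.113 over the settings tried. No 50-base stretch of Mgst1 occurred in transcripts of another gene. Mgst3, the other membrane member, which also has peroxidase activity, had 11.5 and 11.5 CPM in CKO and 9.26 and 9.49 CPM in WT. Its log2 change was 0.30 ± 0.16 (SE; 95% interval -0.08 to 0.67; adjusted p = 0.304).

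The mu-class enzymes were among the most abundant members. Gstm1 (chromosome 3) had 50.9 and 49.0 CPM in CKO and 39.4 and 38.1 CPM in WT, and did not pass the test (log2 change 0.36 ± 0.11; adjusted p = 0.0830). Gstm2, beside it on the same strand, had 70.0 and 53.0 CPM in CKO and 52.9 and 51.1 CPM in WT (log2 change 0.24 ± 0.15; adjusted p = 0.351). CKO B lay just above WT A in Gstm2, and the genotypes overlapped when libraries were scaled by size alone. Some stretches of Gstm1 (18.9%) and Gstm2 (5.65%) occur in other transcripts, so their counts are uncertain to that extent.

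Theta-class Gstt1 (chromosome 10) had 65.3 and 56.2 CPM in CKO and 49.96 and 58.4 CPM in WT, and the genotypes overlapped (log2 change 0.16 ± 0.13; adjusted p = 0.490). Omega-class Gsto1 (chromosome 19), which reduces dehydroascorbate and arsenic species, had 14.8 and 8.96 CPM in CKO and 16.2 and 13.03 CPM in WT. Its log2 change was -0.30 ± 0.25 (adjusted p = 0.509), and it shares bases with Cfap43 on the opposite strand, whose reads cannot be told apart if strand was not used. The alpha-class genes were near the floor of detection. Gsta4 (chromosome 9), whose enzyme acts on 4-hydroxynonenal, had 24 and 36 reads in CKO and 25 and 38 reads in WT (log2 change -0.05 ± 0.44; 95% interval -1.07 to 0.98). Gsta3 (chromosome 1) had 8 and 6 reads in CKO and 2 and 10 reads in WT and did not pass the filter. With 2 libraries per genotype at this depth, changes within the Gsta4 interval could not be told apart, and Gsta3 had no interval.

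Levels of different genes are compared here only per length, as RPKM on the merged exon length of GENCODE M21. The most abundant members in CKO cells were Gstp1, Gstt1, Gstm2 and Gstm1, with mean RPKM of 40.3, 39.7, 36.6 and 33.9, and each neighbour in that order overlapped over libraries. In WT cells the same 4 genes led, as Gstt1 (35.5), Gstm2 (31.0), Gstp1 (29.8) and Gstm1 (26.3), and no neighbours overlapped. Gstp2 came next in CKO, after those 4, at 9.87 and 17.2 RPKM, overlapping Mgst3, against 0.867 and 0.778 RPKM in WT, where it overlapped Gsta4 and only Gsta3 was lower. Its share of the summed RPKM of the 10 members was 5.12% and 9.5% in CKO and 0.614% and 0.539% in WT. The sum itself was 193 and 181 RPKM in CKO and 141 and 144 RPKM in WT, and the 4 leading genes made up 82.2% and 78.8% of it in CKO and 85.3% and 86.4% in WT. These levels rest on no test.

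**Figure D3:**
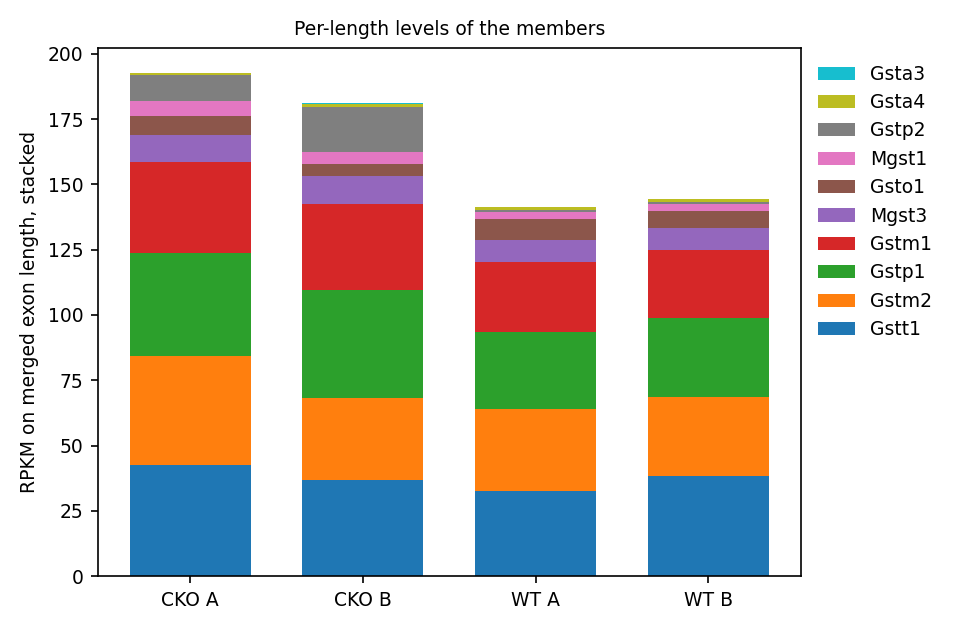
RPKM on merged exon length of the 10 members, stacked for each library, with the CKO libraries left of the WT libraries. The stacks reach 193 and 181 RPKM in CKO and 141 and 144 RPKM in WT, and the grey Gstp2 segment (9.87 and 17.2 RPKM) is seen in CKO but barely in WT.

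Genes of the family outside the 10 were read in the same fit. Of 25 other GST and MAPEG genes, 21 were in the table and 14 could be tested, and 0 were called by edgeR, by DESeq2 or by limma-voom, which called 7.61%, 8.22% and 5.59% of all the genes they tested. A count of 0 among 14 lies near those shares and sets no contrast with the members. At an unadjusted p under 0.05 by edgeR, 2 were higher and 1 was lower. These were Gstk1, a mitochondrial and peroxisomal transferase with a log2 change of 0.46 (adjusted p = 0.122), Gstt3 with 0.92 (0.153), and Gstz1, which works in tyrosine breakdown, with -0.51 (0.0903). Their median log2 change was -0.06, compared with 0.30 over the 9 tested members. With no filter on low counts, 1 gene of the list was called, Ptges, and 2 were called without CKO A, Gstz1 and Ptges, all of them lower in CKO. The 4th lowest p belonged to Alox5ap, which is needed for leukotriene synthesis, at a log2 change of 1.65 (adjusted p = 0.207) from under 1 CPM in every library.

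**Figure D4:**
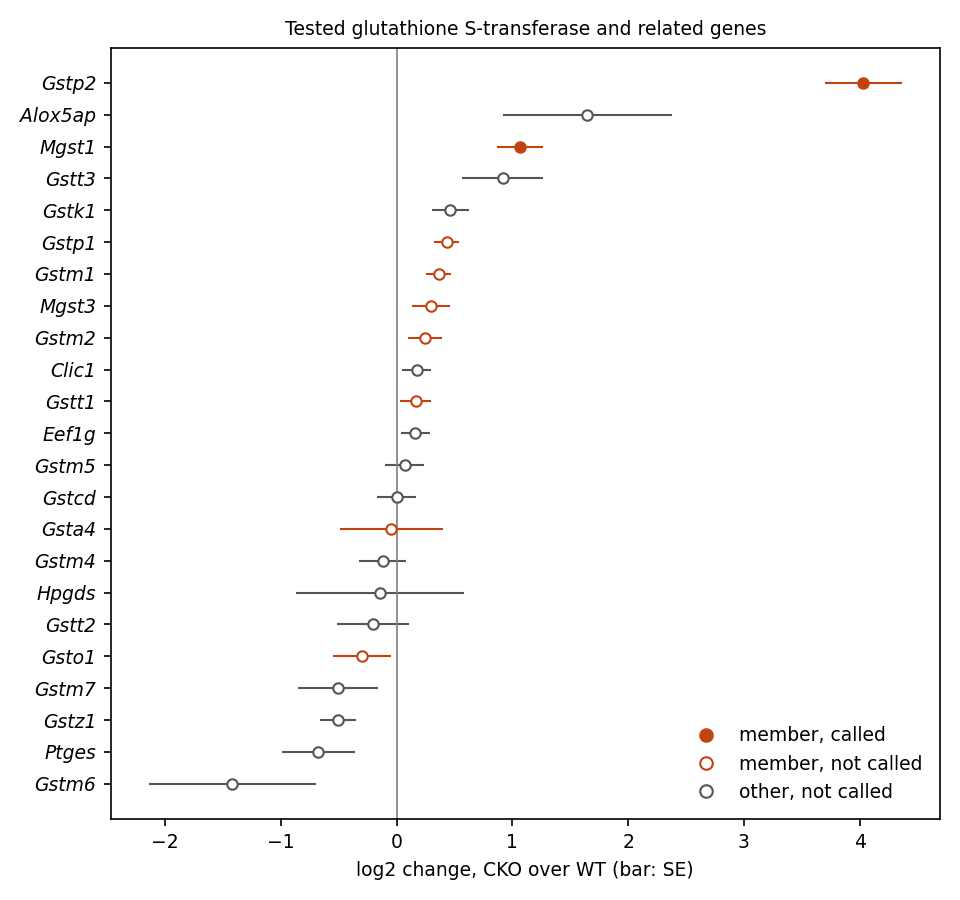
Log2 change of CKO over WT with its SE for the 9 tested members (orange) and the 14 tested other family genes (grey); filled points are called. Gstp2 lies at 4.03 and Mgst1 at 1.07, and every other gene is unfilled.

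Several genes that make, recycle or use glutathione were higher in CKO cells. Of 25 genes listed for glutathione synthesis, recycling and peroxidases, 23 were tested and 7 were called, all higher in CKO (4.85% of all tested genes were higher), and the median log2 change was 0.26. Gclc, the catalytic subunit of the rate-limiting enzyme of glutathione synthesis, had 27.2 and 36.8 CPM in CKO and 14.6 and 16.98 CPM in WT (log2 change 1.02; adjusted p = 0.0154), whereas its partner Gclm was not called. Slc3a2, the heavy chain of several amino acid transporters, stood at 207 and 245 CPM in CKO and 101 and 104 CPM in WT (log2 change 1.14; adjusted p = 0.00369). Slc7a11, its partner in the cystine importer, had only 10 and 4 reads in CKO and 4 and 11 reads in WT and was not tested. The other 5 were Chac1, which degrades glutathione (2.64), the dipeptidase Dpep1 (1.55), Ggt7 (0.88) and the peroxidases Gpx3 (0.88) and Gpx1 (0.66), all log2 changes. Of the 23 tested genes, 19 had a log2 change above 0. Oplah was lower in CKO without overlap and narrowly missed the threshold (log2 change -0.59; edgeR adjusted p = 0.0510). It was called lower with library size alone and with no filter on low counts. Without WT A 3 genes of this list were called (3.64% of all tested genes called) and without WT B 2 (2.14%).

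The list of NRF2 targets and regulators held 30 genes, of which 29 were tested and 11 were called, all higher in CKO (4.85% of all tested genes were higher), and the median log2 change was 0.32. Nfe2l2, the NRF2 gene itself, had 164 and 157 CPM in CKO and 116 and 120 CPM in WT (log2 change 0.45; adjusted p = 0.0450). Hmox1, which breaks down heme, had 33.7 and 47.8 CPM in CKO and 16.4 and 13.03 CPM in WT (log2 change 1.47; adjusted p = 0.00913). Srxn1, which repairs peroxiredoxins, had 16.8 and 21.2 CPM in CKO and 6.62 and 6.06 CPM in WT (log2 change 1.59; adjusted p = 0.00401). Both CKO libraries lay above both WT libraries in each of these. The others were Osgin1 (3.35), the stress-induced pseudokinase Trib3 (3.17), Gclc (1.02), the quinone reductase Nqo1 (0.87), Aox1 (0.83), the ferritin subunits Fth1 (0.75) and Ftl1 (0.74) and the epoxide hydrolase Ephx1 (0.65), as log2 changes. Of the 29 tested genes, 21 had a log2 change above 0. Those below it, none of them called, included Gclm (-0.04), Me1 (-0.23) and Cbr3 (-0.44). At an unadjusted p under 0.05 by edgeR, 15 genes of the list were higher and 2 were lower. The 2 lower genes were Mafg (log2 change -0.46; adjusted p = 0.0751) and Bach1 (-0.30; 0.141). Mafg was called lower with no filter on low counts. The lists share Gclc, Gclm and Slc7a11, and the counts are not independent. Without WT A 5 genes of the NRF2 list were called (3.64% of all tested genes called) and without WT B 4 (2.14%). Hmox1, Srxn1, Osgin1 and Trib3 were called whichever library was left out. Nfe2l2 was not called in any of these 4 settings, nor with limma-voom, library size alone or robust estimation off, and its adjusted p ran from 0.00732 to 0.229 over the settings tried.

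**Figure D5:**
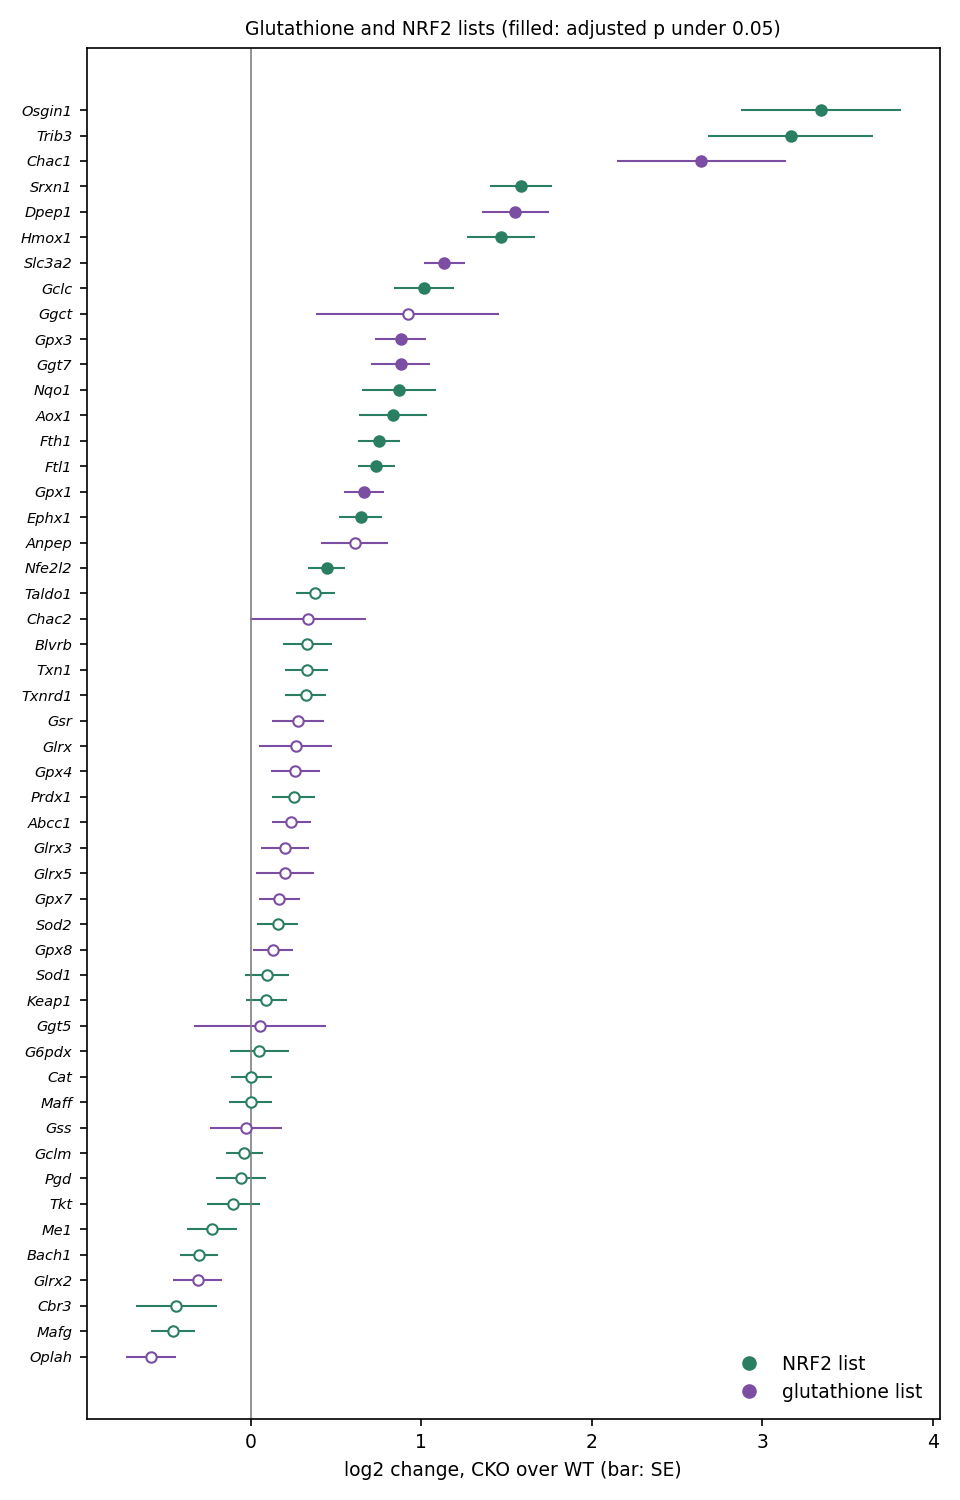
Log2 change of CKO over WT with its SE for the tested genes of the NRF2 list (green) and the glutathione list (purple); Gclc and Gclm, which are in both, are drawn in green. Filled points are called, all of them higher in CKO, from 0.45 for Nfe2l2 to 3.35 for Osgin1.

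Markers of other cells moved in the same libraries, beside 4.85% higher and 2.75% lower over all tested genes. Leukocyte markers were higher in CKO for 5 of 8 tested genes (Cd74, Fcer1g, Laptm5, Cd14 and Csf1r), with a summed level of 78.1 and 53.4 CPM in CKO and 34.5 and 45.0 CPM in WT. Adventitial fibroblast markers were higher for 5 of 8 (Pi16, Dpt, Clec3b, Igfbp6 and Serpinf1), with 1469 and 1578 CPM in CKO and 1106 and 1138 CPM in WT. Of that sum Cd34, which was not called, gave 722 and 460 CPM in CKO and 694 and 649 CPM in WT. The lipofibroblast and alveolar fibroblast list, which also holds Gpx3, was higher for 2 of 8 (Fgf10 and Gpx3), at 526 and 838 CPM in CKO and 377 and 364 CPM in WT. Of 5 erythroid markers 2 were lower (Hba-a1 and Hba-a2), and the list summed to 14.0 and 7.41 CPM in CKO and 22.8 and 30.1 CPM in WT. No tested airway, alveolar epithelial, endothelial, myofibroblast or pericyte marker was called, and no marker of any list was at 0 in all libraries. The part of these cells in the changes of Gstp2, Mgst1 and the lists was not tested.

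The patterns most like that of Gstp2 over the 4 libraries, by distance of centred log2 CPM among 11879 genes, were those of Ly86, Calml3, Gpat2, Glipr1 and Gm4316. Ly86, an immune gene whose protein binds CD180, had 10.7 and 22.5 CPM in CKO and 1.18 and 0.791 CPM in WT, at a distance of 0.339. Calml3, a calmodulin-like gene, had 8.29 and 12.4 CPM in CKO and 0.833 and 0.527 CPM in WT (distance 0.365). Gpat2, an acyltransferase gene best known from testis, had 16.9 and 26.5 CPM in CKO and 1.54 and 0.979 CPM in WT (distance 0.376). Each was higher in CKO B than in CKO A, as Gstp2 was, and low in both WT libraries. Glipr1 and the long noncoding RNA Gm4316 followed at distances of 0.407 and 0.441. The measure picks genes by their values, so their changes are a description of likeness and no test.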

How the data were processed

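RNA was sequenced from sorted lung cells of 4 lungs, 2 CKO and 2 WT. Per the file headers, the table deposited by the authors gives raw counts, mean log2 CPM and log2 fold changes with p-values. The submitters' processing notes name STAR, edgeR 3.28.1, Trimmomatic 0.36, cutadapt 2.5 and FastQC 0.11.8, and build GRCm38.p6. How reads were counted, and whether by strand, is not given in the sources used here. A further 4 columns of per-sample values were not used. Per the file headers a gene length was also deposited. It equalled exon lengths summed over all transcripts plus 1 base per exon for 30700 of 31171 matched genes, so RPKM was computed on merged exon length.

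Columns named Mutant and Control were read as CKO and WT and carry no replicate number. CKO was compared with WT by edgeR 4.0.16 in R 4.3.3 (filterByExpr with a minimum count of 10, TMM, robust quasi-likelihood fit, Benjamini-Hochberg over 15210 genes, threshold 0.05), tested on simulated data, with SE as the log2 change over the root of F. Alternatives included DESeq2 1.42.0, limma-voom 3.58.1, other scalings and filters, and each library left out. All 10 members are named, with every called gene of the lists (where fewer than 4 were called, those of lowest p up to 4) and the 5 genes nearest in pattern to the member with the largest change. The members and lists were chosen with earlier results of these data known.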

Additional observations from a re-analysis of the deposited data

How the results depend on the processing

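Gstp2 was called in CKO cells under each of the 12 alternatives that tested it on its own, with log2 changes of 3.59 to 4.41 when 1 library was left out and adjusted p of at most 0.0180. The number of members called was 2 with library size alone, RLE size factors, DESeq2, limma-voom, a mean CPM of at least 1, robust estimation off and the summed pi-class reads. It was 4 with no filter on low counts, where Gstp1 and Gstm1 were added, and 1 at an adjusted p under 0.01, where Mgst1 (log2 change 1.07) was lost. Leaving out 1 library gave 1 to 3 members, and Mgst1 then changed by 0.95 to 1.20 on the log2 scale; a lone library is there assumed to vary like the others. Gsta4 turned positive without CKO A (0.32) and without WT B (0.17), within -0.46 to 0.32, and Gsto1 without CKO B, to 0.024, within -0.68 to 0.02. The median of all genes was -0.12 with DESeq2, over the 16708 genes it tested, and -0.01 with edgeR. WT A is the library whose column number differs from the other 3. Without WT A the log2 change was 4.12 for Gstp2 and 1.10 for Mgst1, and without WT B it was 3.97 and 1.05. The cause of the differences between settings was not tested. No paired analysis was possible because no label pairs a CKO library with a WT library. At this depth and with 2 libraries per genotype, the 95% intervals of Gstm2 and Mgst3 hold 0 and reach 0.58 and 0.67, and Gsta3 did not pass the filter on low counts.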
